A study of Prunus persica with 8 samples.

Results

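The features described here are the 316 annotated non-coding RNA features of a peach flower bud RNA-Seq table that carry an ENSRNA identifier and reached at least 1 FPKM in at least 2 of 4 stages of chilling. They were chosen by these FPKM values, so their presence at such levels is a description and not a finding. FPKM is a count of sequenced fragments scaled to the length of the feature and to the size of the library. The table lists 22285 features, of which 330 have an ENSRNA identifier. Of these 330, 293 reached 1 FPKM in all 4 stages, 15 in 3 and 8 in 2, and these make up the 316 members. The remaining 14 ENSRNA features are not members, 4 of them having reached 1 FPKM in 1 stage and 10 in none. The second-highest stage values of the 3 members nearest the limit were 1.03, 1.07 and 1.17 FPKM, and those of the 3 nearest features left out were 0.844, 0.911 and 0.924 FPKM.

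Flower buds of the nectarine cultivar Fantasia were taken from farm trees in the autumn and winter rest, after 0, 200, 475 or 770 chilling units (CU) had accumulated, a measure of the cold a tree has received. The groups are named 0CU, 200CU, 475CU and 770CU, and the labels list 2 RNA libraries for each, made by removing ribosomal RNA from total RNA. The study's methods give 1 collection day each for 0CU, 475CU and 770CU, and none for 200CU. Stage and collection day cannot be told apart. The comparisons ask how the level of each RNA differed between stages as chilling accumulated. In bulk samples such as these, fewer cells of a type and less RNA per cell cannot be told apart.

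Plant cells make many RNAs that code for no protein. Ribosomal and transfer RNAs carry out translation, small nuclear RNAs form the core of the spliceosome, small nucleolar RNAs guide the chemical modification of ribosomal RNA, and the RNA of the signal recognition particle takes part in protein targeting. Most of these RNAs lack a poly(A) tail, so that libraries made by poly(A) selection largely lose them. Libraries made by removal of ribosomal RNA do not require a tail, but are depleted of ribosomal RNAs. In plants, genes of small nucleolar RNAs often lie in clusters that are transcribed together.

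Which of these kinds a given member belongs to is not stated in the table, and 0 of the 316 identifiers matched the 26412 genes of the RefSeq annotation, so the members are described by identifier, length and place in the table. For the same reason the flower bud label could not be checked with them. The rows of the table follow the genome, since 99.2% of 20264 successive pairs of PRUPE locus tags of a chromosome were in ascending order. The PRUPE tags on either side of a row are therefore given for the members described singly or in groups. How the counting treated overlapping features and strand is not given in the sources used here, so reads of a member and of a gene it overlaps cannot be told apart. Of the identifiers, 5 begin with ENSRNA04976, 61 with ENSRNA04999 and 250 with ENSRNA05000.

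The members spanned more than 5 orders of magnitude, and a single feature held most of their summed level. The mean over the 4 stages ran from 1.02 FPKM to 144470 FPKM, with a median of 26.1 FPKM, against a median of 9.70 FPKM for the features without an ENSRNA identifier that met the same rule. A mean of 1 to 10 FPKM was found for 104 members, 10 to 100 FPKM for 150, 100 to 1000 FPKM for 47 and 1000 FPKM or more for 15. The most abundant member, ENSRNA050004049, held 61.5% of the members' summed mean FPKM and was 5.79 times as abundant as the second. The 10 most abundant held 89.5% and the 50 most abundant 96.5%.

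Together the members accounted for 42.5%, 30.5%, 35.0% and 28.6% of the summed FPKM of the table in the order of the stages. Without ENSRNA050004049, taken out of both the members and the total, the shares were 18.9%, 16.3%, 17.9% and 14.6%. The share was highest at 0CU and lowest at 770CU with and without it, and the distance between these stages narrowed from 13.9 to 4.21 percentage points. Without the 10 most abundant members the shares were 5.16%, 5.02%, 5.64% and 5.29%, and 475CU became the highest stage. A stage value is a mean of 2 libraries without an error, so no test of the shares was made. Even with 2 values a stage, an exact permutation test of 2 stages could not go below p = 0.33.

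**Figure D1:**
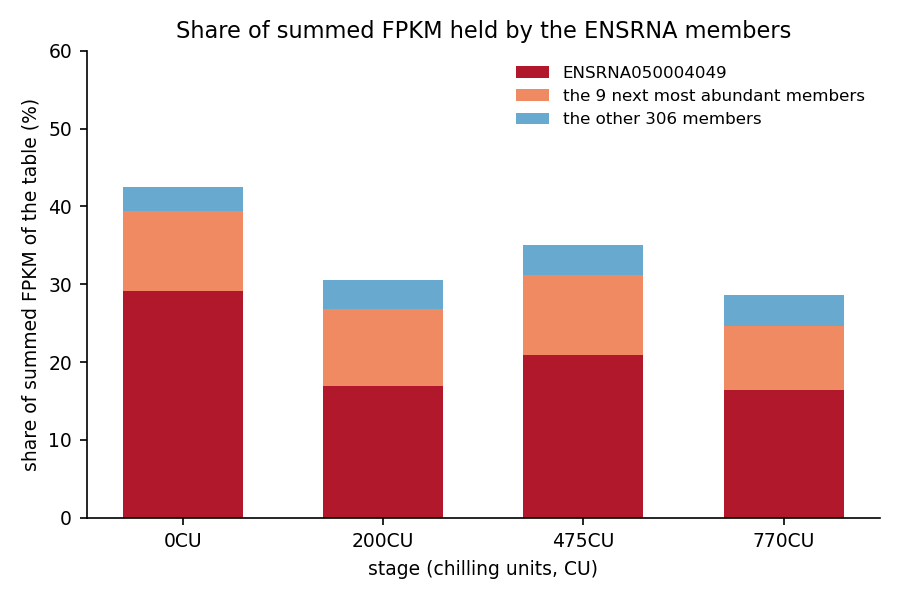
Share of the table's summed FPKM (%) held by ENSRNA050004049, by the 9 next most abundant members and by the other 306, at each stage. The share of ENSRNA050004049 alone was 29.2% at 0CU and 16.4% at 770CU, while that of the other 306 members was between 3.13% and 3.99%.

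ENSRNA050004049, listed between PRUPE_8G175600_P_plus and PRUPE_8G176100, had stage values of 222617, 108916, 148182 and 98165 FPKM. It was lower in each later stage than in 0CU, where its value was 2.27 times that of 770CU. ENSRNA050003363 was at 31280, 26320, 25801 and 16463 FPKM in the same order, and ENSRNA050003366 at 12468, 9007, 9661 and 8000 FPKM. Both were highest at 0CU and lowest at 770CU. ENSRNA050004044 was at 14395, 9707, 15669 and 9404 FPKM, with high values at 0CU and 475CU. ENSRNA050003213 was at 7040, 4438, 5912 and 2644 FPKM, and ENSRNA050004088 at 5300, 3491, 4614 and 2427 FPKM. On the log2(FPKM + 1) scale these 6 members were lower at 770CU than at 0CU with differences from -1.41 to -0.61, that of ENSRNA050004049 being -1.18. Their values could not be separated into libraries, so no error and no test can be given for them.

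For features at lower levels the 2 libraries behind a stage value could be recovered. Each deposited stage value was taken as the mean of a pair of libraries in which a feature has 1 length and a whole number of fragments, and a solution was found for 306 of the 316 members. The 10 without one are the 6 just described, ENSRNA050004048, ENSRNA050004225, ENSRNA050003586_X and ENSRNA050002981_X. The libraries of a stage are called the larger and the smaller by their effective size, which ran from 18051083 to 25374451 fragments, of which 13051293 to 18498192 fell in resolved features. The members' lengths were between 49 and 1807 bases with a median of 112, against a median of 2160 bases for the other features. Of the 306 members, 210 (68.6%) were shorter than a single 150-base read. The study's methods describe extraction of bud RNA with the RNeasy Plant Mini kit. How far short RNAs were lost in extraction or in making the libraries was not tested, so levels of members of different length may not be comparable.

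Because most members are short, a given FPKM stood for fewer fragments than in a longer feature. At 74 bases, 1 FPKM equalled between 1.34 and 1.88 fragments, and at 1807 bases between 32.6 and 45.9. The median member had 74.2 fragments in the mean library, against 321 for the other features. A mean under 10 fragments was found for 46 members (15.0%) and under 50 for 133 (43.5%). Of the fragments in resolved features, the 306 members made up between 0.439% (95% Wilson interval 0.436% to 0.442%) in the larger 200CU library and 0.657% (0.653% to 0.661%) in the larger 0CU library. These intervals cover counting error only. The shares in fragments leave out the 10 unresolved members, among them ENSRNA050004049. At 0CU the resolved members summed to 28850 FPKM, against 324606 FPKM for all members.

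The 2 libraries of a stage lay further apart for the members than for the other features, although this was not tested. The SD of the log2 difference between the smaller and the larger library was 1.03 for the members and 0.289 for 18010 other features at 0CU. At the later stages it was 0.645 against 0.257, 0.415 against 0.210, and 0.485 against 0.199. Restricted to features with at least 50 fragments in the mean library, it was 1.28 against 0.280 at 0CU and 0.680 against 0.243 for 200CU. For 475CU it was then 0.342 against 0.186 and for 770CU 0.472 against 0.1755. Leaving out the members with few fragments thus raised the SD of the members at 0CU and 200CU and lowered it at 475CU and 770CU. The libraries also differed in one direction: at 200CU, 236 of the 306 members were higher in the smaller library, with a median of 0.41, while the median of the other features was -0.01. The part of this spread in each result below was not tested beyond leaving out single libraries.

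**Figure D2:**
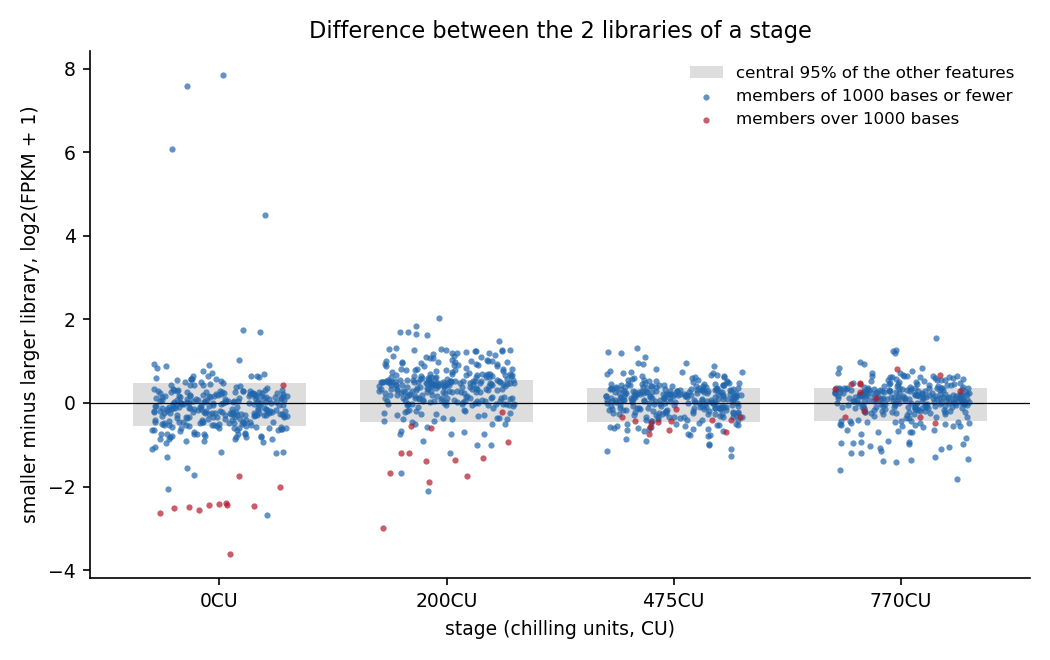
Difference between the smaller and the larger library of each stage, in log2(FPKM + 1), for each of the 306 members (points, spread sideways at random), with the central 95% of 18010 other features as grey bars. At 0CU the bar runs from -0.54 to 0.48 and 93 members lie outside it, among them 4 members above 3 and most of the members over 1000 bases below -1.

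The members were then compared between stages with limma on log2(FPKM + 1) of the 8 libraries, fitted over 18319 features, with a Benjamini-Hochberg adjusted p under 0.05 as the limit. This scale understates the change of low features. Between 0CU and 770CU, 107 of the 306 members were called, against a background of 41.2% of all features tested, and 56 of them (18.3%) rose while 51 (16.7%) fell, against 21.5% and 19.7%. Between 0CU and 200CU, 53 members were called (background 24.5%), of which 33 rose and 20 fell (10.8% and 6.54%, against 13.6% and 10.9%). Between 200CU and 475CU, 6 were called (background 3.1%), of which 2 rose and 4 fell (0.654% and 1.31%, against 1.88% and 1.22%). Between 475CU and 770CU, 18 were called (background 11.1%), of which 11 rose and 7 fell (3.59% and 2.29%, against 4.57% and 6.52%). Except for falls between 200CU and 475CU, the members' shares lay at or below those of all features, a difference that was not tested.

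The median difference of the members was 0.06, -0.03 and 0.00 over the 3 successive steps and -0.07 between 0CU and 770CU, the medians of all features being 0.01, 0.00, 0.00 and 0.00. Among the 283 resolved members with at least 1 FPKM in all 4 stages, 51 rose and 44 fell between 0CU and 770CU, with the same median of -0.07. Of the 107 calls between 0CU and 770CU, 43 were kept whichever of the 8 libraries was left out, 22 of them rises and 21 falls. Without the smaller 770CU library 57 members were called in this comparison. At the other steps, leaving out a library moved the count from 53 to as few as 34 (without the larger 0CU library), from 6 to 0 (without the smaller 200CU library or the smaller 475CU library, with 77 and 57 members at an unadjusted p under 0.05) and from 18 to 2, 5 or 4 (without the larger 475CU, the smaller 475CU or the smaller 770CU library). Without the smaller 200CU library, 20 members rose and 32 fell between 0CU and 200CU.

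The split into rises and falls also moved with the scaling. Rescaling the stages to the same total moved the median of all features to 0.22 between 0CU and 200CU, to -0.12 at the second step, to 0.22 at the last and to 0.30 between 0CU and 770CU. The members' rises and falls were then 75 and 12, 0 and 11, 35 and 5, and 97 and 31 in the same order. With the total of the features without ENSRNA identifiers made equal, the members had 0 rises and 5 falls at the second step and 17 and 5 at the last. With quantile normalization they had 0 and 4 at the second step. The median member was at 0.30, -0.17, 0.23 and 0.27 under rescaling to the same total, close to the median of all features. The shares of all features called under these scalings are not given here. The members' splits are therefore not set against a background and are not read as a trait of the members.

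Differences of stage values of 1 or more on the log2(FPKM + 1) scale could be counted for all 316 members. Setting 770CU against 0CU, 22 members lay higher and 40 lower (6.96% and 12.7%), against backgrounds of 3.82% and 4.08% of 17974 features. Setting 200CU against 0CU, 17 lay higher and 30 lower (5.38% and 9.49%, backgrounds 2.06% and 1.24%). The later steps had 7 higher and 3 lower (2.22% and 0.949%, backgrounds 0.59% and 0.351%) and 3 higher and 10 lower (0.949% and 3.16%, backgrounds 0.684% and 2%). Without ENSRNA050004049, 22 lay higher and 39 lower at 770CU. On this scale the shares of members past the limit were above the backgrounds at every step, beside the larger spread between libraries given above, whose part in them was not tested. The direction turned with the scaling. The total of all features includes the members, ENSRNA050004049 alone holding 29.2% of it at 0CU and 16.4% at 770CU, and its part in the turn was not tested. Rescaled to the same total and set against 0CU, 59 members lay higher and 18 lower at 770CU (18.7% and 5.7%, backgrounds 7.79% and 2.2%), and 41 higher and 18 lower at 200CU (13.0% and 5.7%, backgrounds 3.67% and 0.679%). The later steps then had 3 higher and 7 lower, and 6 higher and 3 lower, the last of these being 0.949% against a background of 1.22%. With the total of the features without ENSRNA identifiers made equal, the last step had 5 higher and 4 lower, and the others kept the direction of the unscaled counts.

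Between 0CU and 770CU, more of the members of up to 130 bases rose than fell, and more of those above 130 and up to 1000 bases fell than rose, the shares over all features being 21.5% for rises and 19.7% for falls. Of 104 members of 70 to 95 bases, 23 rose and 9 fell (22.1% and 8.65%) with a median of 0.11, and of 80 members of 96 to 130 bases, 19 rose and 10 fell (23.8% and 12.5%) with a median of 0.23. The rises of these classes were thus near the background, and their falls below it. Of 80 members above 130 and up to 200 bases, 13 rose and 22 fell (16.2% and 27.5%) with a median of -0.40, and of 27 members above 200 and up to 1000 bases, 1 rose and 10 fell (3.7% and 37%) with a median of -0.47. Between 0CU and 200CU the class above 130 and up to 200 bases had 9 rises and 6 falls (11.2% and 7.5%, against 13.6% and 10.9% of all features). The 13 members over 1000 bases had a median of -0.43, and limma called 0 of them, with 0 at an unadjusted p under 0.05 and 0 called by voom. Length was recovered from the same values, and the direction of a length class was not tested. Together, the 184 members of 70 to 130 bases had medians between 0.05 and 0.25 when 1 library at a time was left out, and the 107 members above 130 and up to 1000 bases between -0.51 and -0.25. Under rescaling to the same total the medians were 0.52 and -0.14, against the 0.30 of all features, and the longer of these groups then had 21 rises and 20 falls.

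**Figure D3:**
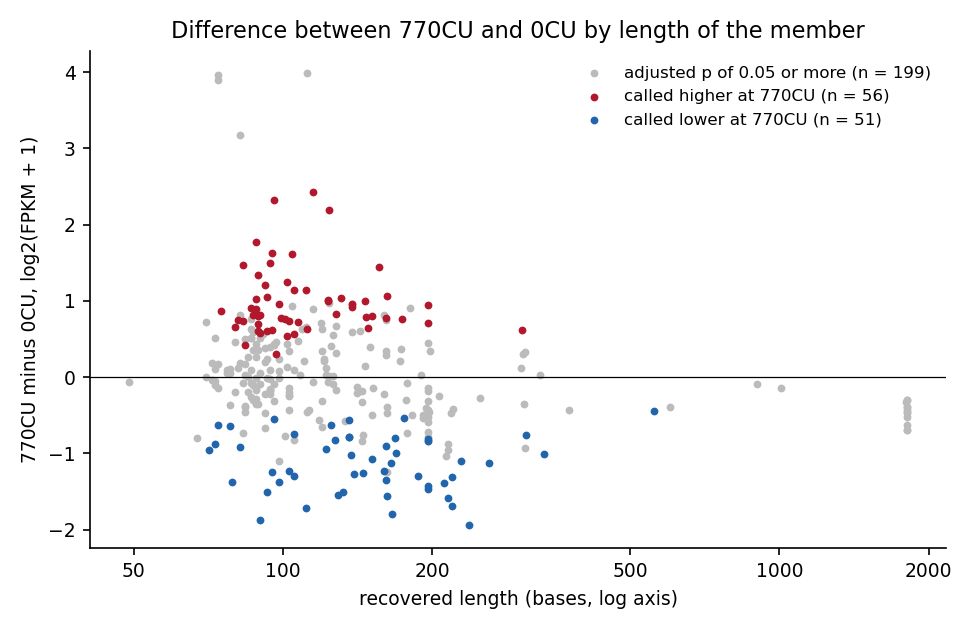
Difference between 770CU and 0CU in log2(FPKM + 1) against the recovered length of each of the 306 members (bases, log axis), coloured by the limma call. The 56 rises lie mostly between 70 and 130 bases, as do 184 of the 306 members, of which 22.8% rose against 21.5% of all features. The 51 falls reach to longer members, and the 4 highest points, whose 0CU libraries lie far apart, are not called.

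The rises included groups of members that stand together in the table, picked out after their values had been seen. Of all features, 21.5% rose between 0CU and 770CU. The stretch between PRUPE_3G219500 and PRUPE_3G220000, which also holds PRUPE_3G219900, lists 8 members of 88 to 124 bases. All 8 differences between 0CU and 770CU were above 0, with a median of 0.98, and 5 of the 8 rose (4 to 7 when 1 library was left out). ENSRNA050003333 (115 bases) was at 32.9 and 22.6 FPKM in the larger and the smaller library of 0CU, 66.1 and 93.2 for 200CU, 95.2 and 127.6 for 475CU, and 146 and 157 for 770CU. No stages overlapped, each lay above the one before it, and the rise was 2.43 between 0CU and 770CU (SE 0.23, limma adjusted p = 0.000241). It was the largest called rise among the members.

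ENSRNA050003315 (124 bases) was at 23.9 and 13.9 FPKM for 0CU, 38.1 and 61.6 for 200CU, 56.3 and 75.7 for 475CU, and 79.1 and 96.3 for 770CU. The libraries of 0CU lay below all others, and the difference between 0CU and 770CU was 2.20 (limma adjusted p = 0.00119). ENSRNA050003327 (88 bases) was at 28.1 and 27.7 FPKM for 0CU and at 94.1 and 102.1 for 770CU, a rise of 1.78 (limma adjusted p = 0.000387). ENSRNA050003320 rose by 0.96 and ENSRNA050003312 by 0.99 (limma adjusted p = 0.00452 and 0.0335), the latter losing its call without either 770CU library or the smaller 0CU library. ENSRNA050003323, in the same rows, was at 71.3 and 56.5 FPKM for 0CU and 57.4 and 78.3 for 770CU, a difference of 0.08 that lay within the spread of its libraries. The differences in these rows thus ran from 0.08 to 2.43.

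The stretch between XLOC_Manual008 and PRUPE_7G232900 lists 4 members of 83 to 99 bases. All 4 rose between 0CU and 770CU, against 21.5% of all features. ENSRNA050003802 (83 bases) was at 64.9 and 66.7 FPKM for 0CU, 109 and 132 for 200CU, 173 and 192 for 475CU, and 197 and 172 for 770CU. Both libraries of 0CU lay below those of 200CU, and these below those of 475CU and 770CU, which overlapped. The rise was 1.47 between 0CU and 770CU (SE 0.12, limma adjusted p = 0.000146). The other members, ENSRNA050003805, ENSRNA050003814 and ENSRNA050003816, rose by 1.34, 1.05 and 0.77 (limma adjusted p = 0.000427, 0.00194 and 0.00879), and only ENSRNA050003816 lost its call when a library was left out, the smaller 770CU library.

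**Figure D4:**
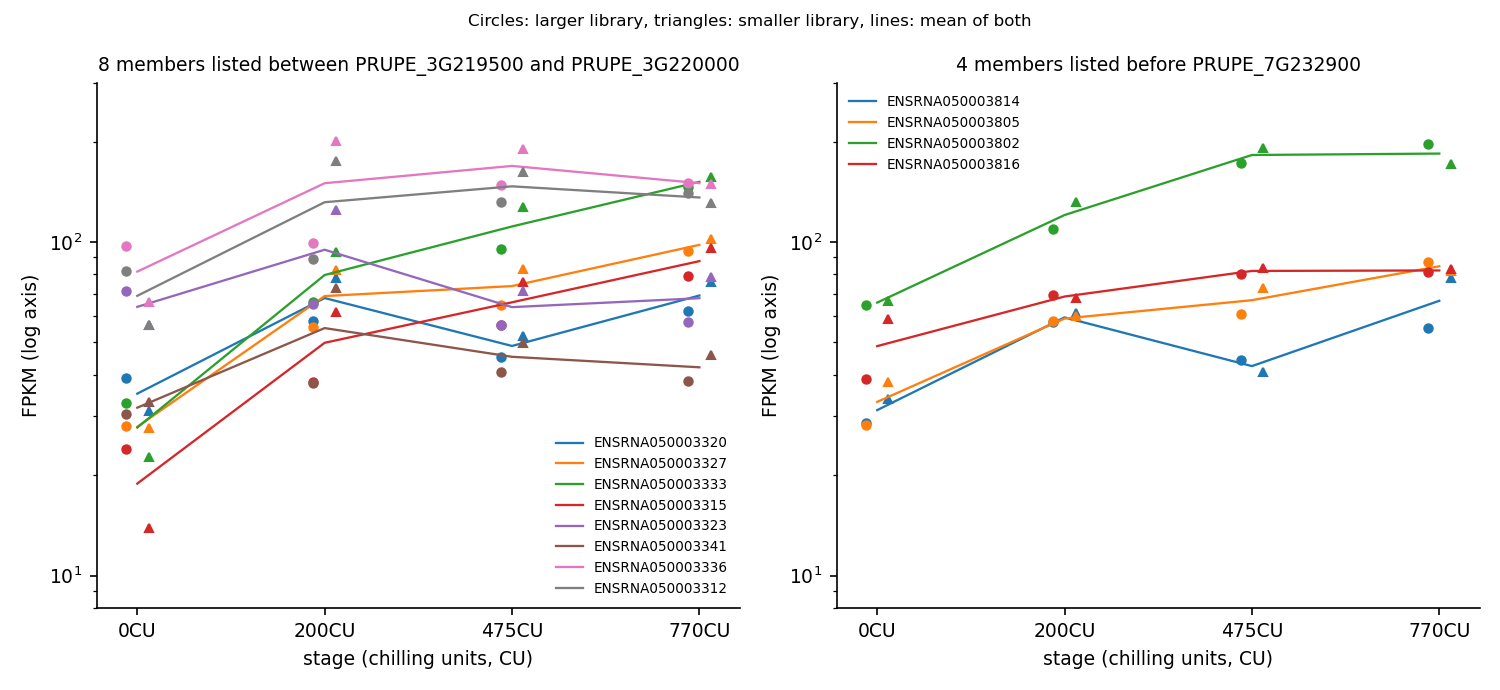
FPKM (log axis) of the 8 members listed between PRUPE_3G219500 and PRUPE_3G220000 (left) and of the 4 listed between XLOC_Manual008 and PRUPE_7G232900 (right) by stage, circles being the larger library, triangles the smaller and lines their mean. All 4 members on the right and 5 of the 8 on the left were called as rises between 0CU and 770CU, against 21.5% of all features.

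Not all neighbouring members moved. The 7 members of 49 to 98 bases listed between PRUPE_5G043200 and PRUPE_5G044000 had summed values of 380 and 305 FPKM in the libraries of 0CU and 335 and 358 in those of 770CU, and their median difference was -0.07, with 1 of the 7 called (0 without the larger 770CU library and 2 without the larger 0CU library). The 1 call was a rise (14.3%, against 21.5% of all features). At 200CU the sums of the 7 members were 266 FPKM in the larger and 484 in the smaller library. The 2 libraries of 200CU thus lay further apart than any of the stage means of this group.

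Further members outside these rows had large called rises, and were likewise picked out after their values had been seen. ENSRNA050004118 (96 bases, listed between PRUPE_1G419100 and PRUPE_1G419400) was at 14.2 and 16.7 FPKM for 0CU, 64.5 and 79.1 for 200CU, 45.1 and 56.1 for 475CU, and 72.0 and 91.2 for 770CU. The 0CU libraries were lowest by a wide gap, and the rise between 0CU and 770CU was 2.32 (limma adjusted p = 7.74e-05). The rise had already been 2.14 between 0CU and 200CU (limma adjusted p = 0.000331), and both calls were kept whichever library was left out. ENSRNA050004155 (94 bases) was at 253 and 266 FPKM for 0CU and at 606 and 885 for 770CU. It rose by 1.49 (limma adjusted p = 0.0131), a call lost without the larger 0CU or the smaller 770CU library.

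Between 0CU and 200CU, 18 of the 53 calls were kept whichever library was left out. ENSRNA050004105 (88 bases) was at 87.7 and 86.9 FPKM for 0CU and at 152 and 197 for 200CU, and its later libraries lay between 125 and 176. It rose by 0.98 (limma adjusted p = 0.00473). ENSRNA050003822 (71 bases) was at 27.4 and 27.3 FPKM for 0CU and at 10.6 and 14.7 for 200CU, and stayed at or below 14.2 later. It fell by 1.08 (limma adjusted p = 0.00589). In both, the 0CU libraries lay apart from all 6 later ones.

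At the later steps none of the calls was kept throughout, and 3 members of 94 bases, picked out after their values had been seen, were lowest at 475CU. ENSRNA050003109 was at 57.9 and 49.5 FPKM for 0CU, 47.4 and 51.5 for 200CU, 28.6 and 31.9 for 475CU, and 48.7 and 45.3 for 770CU. Its 475CU libraries lay below all others, and it fell by 0.69 at the second step and rose by 0.62 at the last (limma adjusted p = 0.0216 and 0.00989). ENSRNA050003532 was at 29.1 and 30.8 FPKM for 475CU and 43.6 and 39.3 for 770CU, and ENSRNA050003535 at 15.5 and 19.1 and then 26.5 and 30.4. They rose by 0.46 and 0.69 at the last step (limma adjusted p = 0.0179 and 0.0183), and their 475CU libraries were below those of every other stage.

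Some lengths recurred among the members, and groups of equal or near-equal length were picked out after their values had been seen. Whether members of equal length share sequence was not analysed here, so fragments may have been divided among copies. The 4 members of 138 bases, ENSRNA050003694, ENSRNA050003698, ENSRNA050003709 and ENSRNA050003720, the last 3 in successive rows between PRUPE_1G228200 and PRUPE_1G228300, were all higher at 770CU, with a median of 0.94. ENSRNA050003694 was at 688 and 605 FPKM for 0CU, 536 and 1315 for 200CU, 1005 and 1265 for 475CU, and 1073 and 1455 for 770CU. Its libraries of 200CU enclosed all values of 0CU, and its difference of 0.95 between 0CU and 770CU was not called (limma adjusted p = 0.0875). ENSRNA050003720 and ENSRNA050003698 rose (0.95 and 0.92, limma adjusted p = 0.00633 and 0.0343). The call of ENSRNA050003698 was lost without either library of 0CU, 475CU or 770CU.

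A length of 196 bases was shared by 16 members, listed among PRUPE tags of 4 chromosomes. Their summed values were 407 and 321 FPKM in the libraries of 0CU, 214 and 243 for 200CU, 393 and 361 for 475CU, and 295 and 161 for 770CU. The sums at 0CU and 475CU lay above those at 200CU and 770CU. Between 0CU and 770CU, 2 of the 16 rose and 4 fell, with a median of -0.56. These are 12.5% and 25%, against 21.5% and 19.7% of all features. The 2 that rose, ENSRNA050004007 and ENSRNA050004073, were at low levels, ENSRNA050004007 resting on 2 and 1 fragments at 0CU. The most abundant of the 16, ENSRNA050003539, was at 99.1 and 82.0 FPKM for 0CU, 46.1 and 44.5 for 200CU, 106 and 99.3 for 475CU, and 70.3 and 36.8 for 770CU, and fell by 0.81 between 0CU and 770CU (limma adjusted p = 0.0375). This call was lost when any library other than the larger 770CU one was left out. Without the larger 770CU library 9 of the 16 fell and 0 rose, and without the smaller one 3 fell and 1 rose.

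The 7 members of 213 to 219 bases also had their highest sums at 0CU and 475CU. Their summed values were 3100 and 1882 FPKM for 0CU, 1094 and 1186 for 200CU, 2571 and 2001 for 475CU, and 1771 and 756 for 770CU. All 7 were lower at 770CU than at 0CU, with a median of -1.03, and 3 of them fell (42.9%, against 19.7% of all features). ENSRNA050003686 (219 bases) was at 193 and 237 FPKM for 0CU, 66.0 and 71.2 for 200CU, 92.1 and 78.6 for 475CU, and 65.7 and 65.8 for 770CU. Its 0CU libraries stood apart from the other 6, which lay close together, and the fall between 0CU and 770CU kept its call whichever library was left out (-1.69, SE 0.12, limma adjusted p = 8.71e-05). The most abundant of the 7, ENSRNA050004058 (213 bases), was at 2018 and 1103 FPKM for 0CU and at 1164 and 455 for 770CU, where the stages overlapped, and its difference of -1.03 was not called (limma adjusted p = 0.102). Without the larger 770CU library all 7 fell and the median was -1.68, and without the smaller one it was -0.36. ENSRNA050003095, at 211 bases just shorter than these, was at 213 and 196 FPKM for 0CU, 73.2 and 109.7 for 200CU, 152 and 139 for 475CU, and 108 and 55.5 for 770CU, and fell by 1.39 (limma adjusted p = 0.00878).

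The values of the longest members depended on single libraries. There were 11 members of 1806 or 1807 bases, described after their values had been seen, and 10 of them stand among the 42 rows listed between PRUPE_4G289700 and PRUPE_5G000100, which hold 14 members in all. Their summed values were 446 FPKM in the larger and 67.9 in the smaller library of 0CU, 93.8 and 30.01 for 200CU, 114 and 79.7 for 475CU, and 114 and 139 for 770CU. The larger 0CU library stood above every other. All 11 differences between 0CU and 770CU were below 0, with a median of -0.46, and limma called 0 of them, with 0 at an unadjusted p under 0.05 and 0 called by voom.

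Leaving out the larger 0CU library turned the median of these 11 members to 0.82, and leaving out the smaller one moved it to -1.67, with 7 called. Between 0CU and 200CU the median of the 11 was -1.44 with 0 called, 1 at an unadjusted p under 0.05 and 0 called by voom. It was -0.15 without the larger 0CU library and -2.82 without the smaller one. Without the larger 200CU library it was -2.08, and without the smaller 200CU library -0.73. ENSRNA050004191 had 3095 fragments in the larger and 436 in the smaller library of 0CU, or 83.2 and 13.4 FPKM, and 21.6 and 30.1 FPKM for 770CU. ENSRNA050004207 differed from these, at 50.6 and 11.7 FPKM for 0CU, 8.57 and 0.20 FPKM for 200CU, 2.93 and 2.54 for 475CU and 20.0 and 15.6 for 770CU, and was the only one of the 11 with its lowest mean at 475CU. The difference between libraries was shared by features without an ENSRNA identifier in the same rows, since 19 of the 21 resolved XLOC features there were also higher in the larger 0CU library, with sums of 1384 and 757 FPKM.

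**Figure D5:**
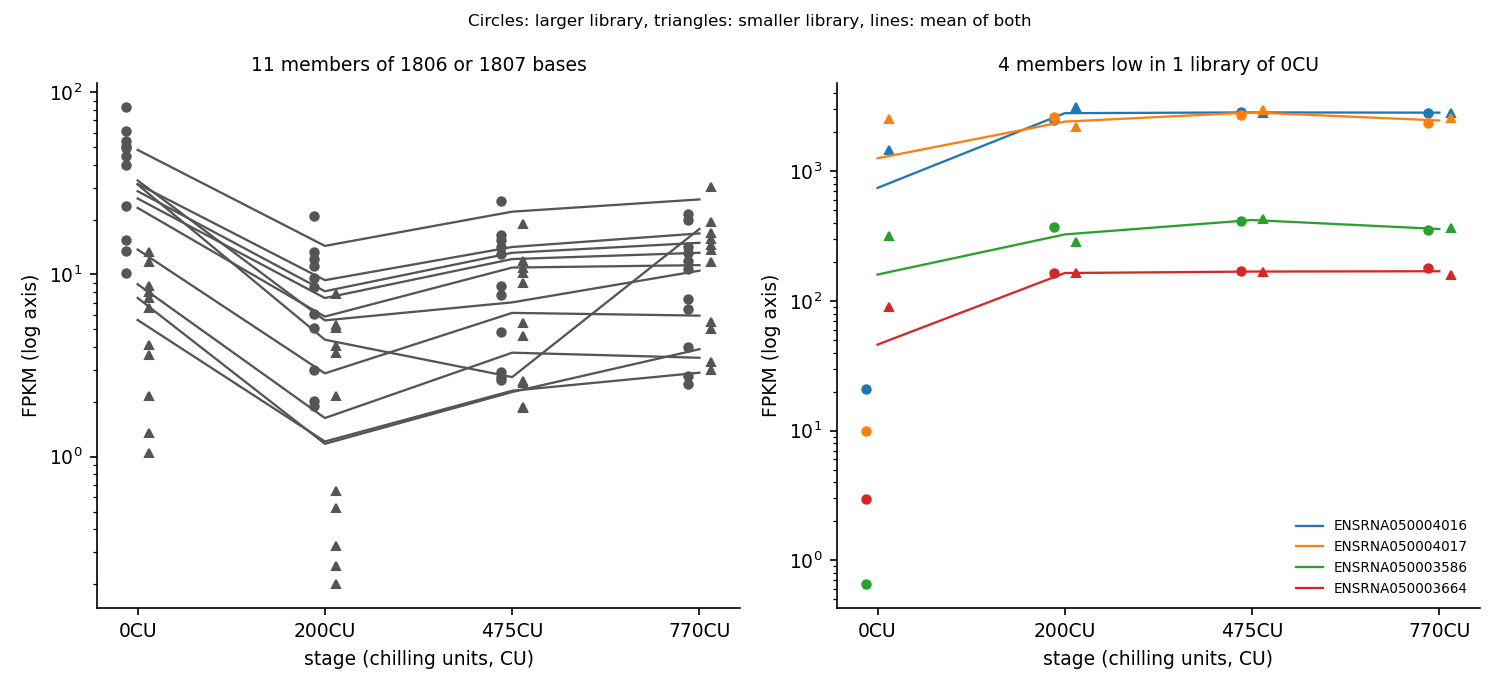
FPKM (log axis) by stage of the 11 members of 1806 or 1807 bases (left) and of the 4 members that were low in the larger 0CU library (right), circles being the larger library, triangles the smaller and lines their mean. On the left the 0CU circle of each member lies above its other 7 libraries, and on the right the 4 circles of 0CU lie far below the other 7 libraries of each member.

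The 2 largest differences between 0CU and 770CU without overlap of the libraries, among members with at least 50 fragments, were those of members that were low in 1 library. ENSRNA050004016 (112 bases) was at 20.8 FPKM in the larger and 1469 in the smaller library of 0CU, or 48 and 2969 fragments, and between 2474 and 3142 FPKM in the other 6 libraries. Its difference of 3.99 was not called (SE 1.57, limma adjusted p = 0.0775), and without the larger 0CU library it was 0.95 (limma adjusted p = 0.0406). It was called as 7.02 without the smaller 0CU library (limma adjusted p = 2.56e-05), as 4.33 under rescaling to the same total (limma adjusted p = 0.0467) and as 4.14 by voom (adjusted p = 0.019), and its adjusted p ran up to 0.206 under the other alternatives. ENSRNA050003586 (74 bases) had 1 and 426 fragments at 0CU, or 0.656 and 319 FPKM, and between 283 and 428 FPKM at the later stages. Its difference of 3.97 (limma adjusted p = 0.141) became 0.17 without that library (limma adjusted p = 0.499). It was called as 7.76 without the smaller 0CU library (limma adjusted p = 6.8e-06) and as 4.54 by voom (adjusted p = 0.0326), its adjusted p being between 0.0934 and 0.304 under the remaining alternatives.

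A further pair of members, added after their values had been seen, had the same form. ENSRNA050004017 (74 bases) had 15 and 3354 fragments at 0CU, or 9.84 and 2511 FPKM, and between 2206 and 2975 FPKM later. ENSRNA050003664 (82 bases) had 5 and 132 fragments, or 2.96 and 89.2 FPKM, and between 158 and 181 FPKM later. Over all 18319 features compared between the libraries of 0CU, 17 lay more than 3 apart on the log2(FPKM + 1) scale, of which 5 were members, 8 were XLOC features and 4 were PRUPE genes. The fifth member, ENSRNA050003098 (1806 bases), lay the other way, at 61.5 FPKM in the larger and 4.11 in the smaller library. For these members the stage value at 0CU is the mean of 2 libraries that lie far apart.

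The 2 largest falls without overlap among members with at least 50 fragments rested on libraries that lay closer together at 0CU. ENSRNA049996570 (90 bases) was at 99.8 and 110 FPKM for 0CU, 104 and 169 for 200CU, 65.4 and 53.8 for 475CU, and 29.5 and 26.5 for 770CU. The libraries of 0CU and 200CU overlapped and lay above those of 475CU, which lay above those of 770CU. It fell by 1.87 between 0CU and 770CU (SE 0.21, limma adjusted p = 0.000538), and kept this call whichever library was left out. The falls of the second and the last step were 1.15 and 1.06 (limma adjusted p = 0.0359 and 0.0192), calls lost in 7 and 4 of the 8 fits without a library. ENSRNA049996337 (166 bases) was at 55.0 and 32.7 FPKM for 0CU, 12.4 and 40.04 for 200CU, 13.5 and 12.6 for 475CU, and 12.1 and 11.0 for 770CU. It fell by 1.79 (SE 0.46, limma adjusted p = 0.0180), a call lost without the larger 0CU library or either 770CU library. Among falls picked out after their values had been seen, that of the more abundant ENSRNA050003146 (139 bases) was also kept throughout. It was at 876 and 573 FPKM for 0CU, 371 and 490 for 200CU, 390 and 427 for 475CU, and 302 and 285 for 770CU, and fell by 1.27 (limma adjusted p = 0.00348).

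Falls also stood side by side. The stretch between PRUPE_1G318700 and PRUPE_1G318900 lists 4 members of 120 to 145 bases, picked out after their values had been seen. All had differences below 0 between 0CU and 770CU, with a median of -0.72. Of the 4, 2 fell, the share of falls over all features being 19.7%. ENSRNA049996202 (136 bases), the most abundant, was at 244 and 211 FPKM for 0CU, 209.8 and 253 for 200CU, 155 and 159 for 475CU, and 127 and 135 for 770CU. The earlier pair of stages overlapped and lay above the later pair, and the fall was 0.79 (SE 0.12, limma adjusted p = 0.00222). ENSRNA049996209 (145 bases) fell by 1.26 (limma adjusted p = 0.0298), from 42.5 and 16.8 FPKM to 9.98 and 11.3, a call lost without the larger 0CU library or either 770CU library.

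ENSRNA049996570, ENSRNA049996337 and the members of this stretch carry identifiers that begin with ENSRNA04999. Of the 61 members with that beginning, 5 rose and 20 fell between 0CU and 770CU (8.2% and 32.8%, against 21.5% and 19.7% of all features) with a median of -0.43. Of the 240 resolved members beginning with ENSRNA05000, 51 rose and 29 fell (21.2% and 12.1%) with a median of 0.04, the rises being near the background. ENSRNA050003167 (237 bases), picked out after its values had been seen, had the largest called fall of all members, but a mean of only 8.25 fragments. It was at 5.53 and 3.74 FPKM for 0CU and 0.17 and 0.79 for 770CU (-1.94, limma adjusted p = 0.00213), so this fall rested on very few fragments. The 61 members beginning with ENSRNA04999 had a median of 15.9 fragments in the mean library, and the 240 beginning with ENSRNA05000 a median of 103. With at least 50 fragments, 14 of the 61 remained, 2 of which rose and 7 fell. Rescaling to the same total gave 12 rises and 15 falls among the 61.

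Among the 8 most abundant members, 2 could be separated into libraries. ENSRNA050004189 (78 bases, listed between PRUPE_1G019800 and PRUPE_1G019900) was at 2951 and 3536 FPKM for 0CU, 2893 and 2641 for 200CU, 2785 and 2915 for 475CU, and 2277 and 2748 for 770CU. ENSRNA050003725 (74 bases, listed between PRUPE_1G271000 and PRUPE_1G271100) was at 2196 and 2551 FPKM for 0CU, 2216 and 2260 for 200CU, 2463 and 2772 for 475CU, and 2480 and 2852 for 770CU. Their differences between 0CU and 770CU, -0.37 and 0.17 (limma adjusted p = 0.274 and 0.592), were not called by limma. The libraries of these 2 stages overlapped for ENSRNA050003725 but not for ENSRNA050004189, whose 0CU libraries lay above all 6 later ones and whose difference was called by voom (-0.37, adjusted p = 0.026). Of the other resolved members above 1000 FPKM not yet described, ENSRNA050003580 (260 bases) was at 2174 and 1788 FPKM for 0CU, 844 and 1931 for 200CU, 1698 and 1573 for 475CU, and 977 and 832 for 770CU, and fell by 1.13 (limma adjusted p = 0.0404), a call lost in 6 of the 8 fits without a library. ENSRNA050004112 (124 bases) was at 795 and 717 FPKM for 0CU and 1272 and 1730 for 770CU, a difference of 0.97 that was not called (limma adjusted p = 0.0579). ENSRNA050003345 (67 bases) was at 1805 and 1153 FPKM for 0CU and 797 and 862 for 770CU, and its difference of -0.80 was not called either (limma adjusted p = 0.127).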

How the data were processed

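The FPKM values were deposited by the authors as 1 column per stage. Each column bears the label of the first replicate, yet its values are means of 2 libraries. The submitters' processing notes name Trimmomatic 0.39, HISAT2 and featureCounts. The annotation release and the strand setting are not given in the sources used here. FPKM was normalized to feature length and library size, so a few abundant features weigh on any share of the total. No per-sample column was left unused.

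To separate the libraries, each stage value was solved for 2 whole fragment numbers and 1 length per feature, within the rounding of the file. A solution was found for 21959 of 22285 features (98.5%). In simulated data 319 of 320 ENSRNA features were solved, 317 of them correctly. The simulation used only features already resolved here and was given the true library sizes. It therefore does not test how the library sizes were found or the unresolved members. When 1000 values simulated from 3 libraries were given to the same step, 19 passed. Which library is which replicate is not known. The study's methods describe biological replicates collected from groups of trees for 0CU, 475CU and 770CU, with another number of replicates at 475CU than the 2 libraries here, and the labels do not tie a library to its trees, so p-values measure the spread between these libraries, part of which may be technical.

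Features reaching 1 FPKM in 2 or more libraries entered limma 3.58.1 (R 4.3.3) on log2(FPKM + 1), with all 8 libraries and a trended variance. In 5 simulated sets of 18012 features for 0CU to 770CU, 200 features were changed by 1 on the log2 scale in each. Of the changes 65.9% were called, and 10.71% of the calls were false, so that adjusted p-values were too small there. The simulation gave every feature the same spread between libraries beyond counting error. The members' libraries lay further apart than those of other features, so these rates may not hold for the members. Named members were the 8 most abundant, and, among members with at least 50 fragments whose 0CU and 770CU libraries did not overlap, the 2 that rose most and the 2 that fell most. Others were picked after their values were seen. The members, lists and rules were chosen with earlier results of these data known. Python 3.11.15 was used for the rest.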

Additional observations from a re-analysis of the deposited data

How the results depend on the processing

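The shares of summed FPKM depended on a few features, and the shares in fragments were taken over another set. Counted as fragments in place of FPKM, the resolved members held 0.583%, 0.527%, 0.632% and 0.570% of the resolved features in the order of the stages. This leaves out the 10 unresolved members, among them ENSRNA050004049. At 0CU the resolved members summed to 28850 FPKM, against 324606 FPKM for all members. The part of the unit was thus not separated from that of the set. The shares without the most abundant member were 18.9%, 16.3%, 17.9% and 14.6%, without the 10 most abundant 5.16%, 5.02%, 5.64% and 5.29%, and without members shorter than 100 bases 41.3%, 28.4%, 33.2% and 26.3%. Taking all ENSRNA features, with no minimum FPKM, left the shares as they were to 3 digits. With the same total for every stage (TPM), 87, 11 and 40 members were called over the 3 successive steps, the median of all features moving to 0.22, -0.12 and 0.22. With at least 50 fragments in the mean library, 35 of 173 members were called at the first step and 67 between 0CU and 770CU. When the fit held no other stages than those compared, 2 were called at the second step and 46 at the last, where voom on fragments called 7. With a pseudocount of 0.1, 18 members differed by at least 1 at the second step and 22 at the last. The shares of all features called under these settings, or with a library left out, are not given here. The counts of called members are therefore not set against a background.

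Leaving out 1 library at a time gave 34 to 69, 0 to 8 and 2 to 26 calls over the successive steps, and 57 to 125 between 0CU and 770CU. The lowest counts came without the larger 0CU library (34), without the smaller 200CU or the smaller 475CU library (0, with 77 and 57 members at an unadjusted p under 0.05), without the larger 475CU library (2) and without the smaller 770CU library (57). Between 200CU and 475CU, 3 were called without either 0CU library and 2 without the larger 475CU library. Between 475CU and 770CU, 5 were called without the smaller 475CU library and 4 without the smaller 770CU library. Without the larger 200CU library 62 members rose and 7 fell between 0CU and 200CU, and without the smaller one 20 rose and 32 fell, the median member moving from 0.27 to -0.12. Of the calls between 0CU and 200CU, 18 of 53 were kept whichever library was left out, and 0 of the 6 and 0 of the 18 calls of the 2 later steps. No paired analysis was possible because the recovered libraries carry no replicate numbers. The cause of these changes was not tested. Short length limits the depth: 133 of 306 members rested on under 50 fragments in the mean library.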
